A study of Mus musculus with 80 samples.

Results

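Of 80 Myc-driven mouse mammary tumours, 29 had high expression of the genes on chromosome 15, 41 had low expression and 10 lay between. The tumours were chosen by a score: the median over the measured chromosome 15 genes of a tumour's log2 signal, relative to each gene's mean over the 80 arrays, minus the same median over all genes of that array. A score above 0.15 made a tumour high and a score below -0.05 made it low. Here log2 signal means log2(intensity + 5), and the score used 355 chromosome 15 genes of the 495 on the array, those whose signal passed a filter on low values. All mice were of the FVB strain and carried the MMTV-Myc transgene, in which the mouse mammary tumour virus promoter drives Myc in mammary epithelium. The series holds 20 tumours each from E2F1 null, E2F2 null, E2F3 heterozygous and E2F wild-type mice, frozen when the primary tumour reached its endpoint, with 1 array per tumour. The high class held 5 E2F1 null, 8 E2F2 null, 8 E2F3 heterozygous and 8 wild-type tumours, and the low class held 12, 8, 10 and 11 in the same order. DNA copy number was not measured here, so the classes describe expression.

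Mouse chromosome 15 carries the endogenous Myc gene, with the non-coding gene Pvt1 beside it, and the block around them is a common site of gain in mouse and human tumours. It also carries the type II keratin cluster, several subunits of the translation initiation factor eIF3, and genes of mitosis, cell polarity and sterol synthesis. When a tumour cell gains or loses a whole chromosome, transcripts of most genes along it tend to shift by a similar small amount, and individual genes can depart from that shift through their own regulation.

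All 80 tumours had epithelial markers at high signal: Epcam, an epithelial adhesion protein, lay between 11.38 and 13.12, and Krt18, a simple epithelial keratin, between 12.28 and 14.21. Array quality did not differ detectably between high and low tumours in the median log2 signal, in the 3' to 5' ratios of Gapdh and beta-actin, or in the mean correlation with the other arrays (adjusted p = 0.298 for each, permutation tests). E2F1 null replicate 6, a low tumour, stood apart, with a mean correlation of 0.807 against a median of 0.906 over all arrays. Without it, 1688 genes off chromosome 15 were called, against 1664 with it. In 19 cases several tumours shared a label number, 46 tumours in all, and may come from 1 animal; the labels do not say what that number means. Of these numbers, 7 held high as well as low tumours, 3 held high tumours only and 3 held low tumours only.

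The score ran from 0.153 to 0.5 in high tumours, with a median of 0.217 and a mean of 0.249 ± 0.096 (SD, n = 29), and from -0.321 to -0.062 in low tumours, with a median of -0.205 and a mean of -0.191 ± 0.059 (SD, n = 41). The class means lay 0.44 apart; since the score chose the classes, this is a description without a test. Just above the upper threshold lay scores of 0.153, 0.154 and 0.158, and just below it 0.136, 0.123 and 0.119, so this threshold cut a continuous run of values. The lower threshold fell in a wider space: scores of -0.062, -0.075 and -0.089 lay below it, and -0.009, 0.03 and 0.058 above it. Above the main body of high tumours stood 4 tumours with scores over 0.4, E2F1 null replicate 8 (0.5) and E2F2 null replicates 7, 10 and 18 (0.479, 0.455 and 0.417). The next highest score was 0.305.

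**Figure D1:**
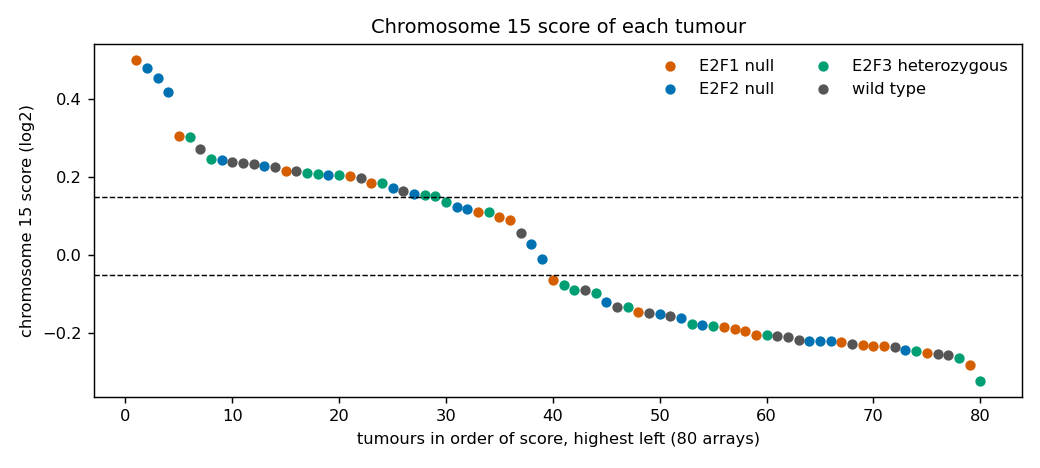
Chromosome 15 score (log2, y axis) of each of the 80 tumours, ordered from the highest score on the left (x axis) and coloured by genotype; dashed lines mark the thresholds 0.15 and -0.05. A group of 4 tumours lies above 0.4, all 4 genotypes occur among the high and among the low tumours, and the 10 tumours between the lines span -0.009 to 0.136.

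The rule did not use the genotype, and genotype was not detectably related to the class (p = 0.714, Fisher-Freeman-Halton exact test over 4 genotypes and 3 classes). High tumours made up 5 of 20 E2F1 null tumours and 8 of 20 in each of the E2F2 null, E2F3 heterozygous and wild-type groups. With 1 mean score per label number, E2F1 null tumours averaged -0.038 ± 0.226 (SD, n = 16), E2F2 null tumours 0.075 ± 0.211 (SD, n = 11), E2F3 heterozygous tumours -0.033 ± 0.168 (SD, n = 10), and wild-type tumours averaged -0.006 ± 0.193 (SD, n = 16). None of the 3 differences from wild type passed the permutation test (adjusted p = 0.714 for each).

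The difference between the classes spread along the whole chromosome. Of the 355 genes, 319 (89.9%) had a higher mean in high than in low tumours and 36 a lower one, whereas 45.3% of the genes off chromosome 15 were higher. The median difference on chromosome 15 was 0.45 (1.37-fold), with quartiles of 0.28 and 0.6, beside a median of -0.017 and quartiles of -0.12 and 0.1 for the genes off it. Of a further 208 detected probe sets for these same genes, 195 were higher in high tumours, with a median difference of 0.42. The score did not use them, but they read genes that chose the classes and are no independent check. For the 237 chromosome 15 probe sets below the filter the median difference was 0.03. With the 355 genes split into 3 groups by mean signal, the median difference was 0.34 in the dimmest group, 0.49 in the middle one and 0.45 in the brightest.

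Along the gene order, the 355 genes were split into 10 consecutive groups of 35 or 36 genes. The median difference between the classes ranged from 0.336 in the first group, from Selenop to Otulin, to 0.524 in the ninth, from Arf3 to Atg101, and was 0.391 in the last, from Krt80 to Glycam1. In 27 of the 29 high tumours all 10 groups lay above the mean over arrays, and in the remaining 2 tumours 9 did. Of the 41 low tumours, 30 had all 10 groups below it, 6 had 1 group above and 5 had 2 or 3 above. The 4 tumours with scores over 0.4 were raised in every group, at values between 0.2 and 0.7.

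A few tumours were uneven along the chromosome. Wild-type replicate 5, with a score between the thresholds, had values of -0.25, -0.23 and -0.27 in the first 3 groups and values of 0.08 to 0.29 in groups 4 to 9. E2F3 heterozygous replicate 17, a low tumour, had 0.46 and 0.22 in the first 2 groups and values from -0.22 to -0.02 in the other 8. These tumours were singled out after their values were seen. The remaining 9 tumours between the thresholds had 5 to 10 groups above 0, mostly by small amounts.

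**Figure D2:**
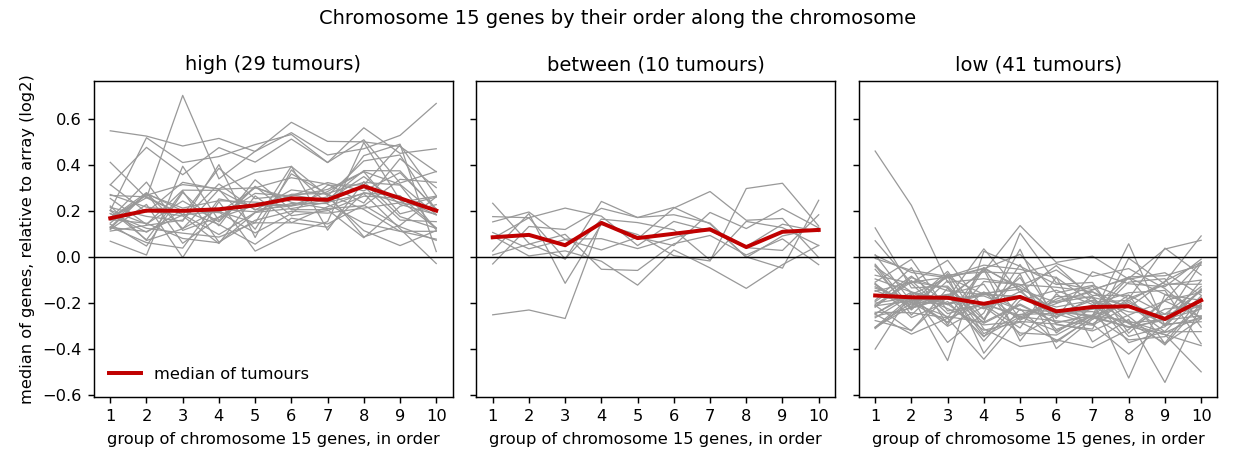
Median log2 signal of each of 10 consecutive groups of chromosome 15 genes, relative to the gene's mean and the array's median (y axis), with the groups in gene order (x axis), for high, between and low tumours; thin lines are single tumours and the thick line is the median of the class. High tumours lie above 0 and low tumours below 0 along nearly the whole order, with a few uneven tumours.

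Myc itself, measured by 1 probe set, hardly differed between the classes. Its log2 signal had a lowest value of 12.79, a median of 13.57 and a highest of 13.88 in high tumours, against 12.48, 13.49 and 13.92 in low tumours. The ranges overlapped almost completely, and the means, 13.53 ± 0.23 (SD, n = 29) in high and 13.46 ± 0.30 (SD, n = 41) in low tumours, differed by 0.07. Ranked by difference from the lowest upward, Myc was number 43 of the 355 genes, while by mean signal it was number 3 from the highest. All these tumours carry the Myc transgene, and no source used here says whether the probe set reads transgene and endogenous transcripts alike.

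The neighbours of Myc shifted with the rest of the chromosome. Like all chromosome 15 genes described here, they were part of the score that chose the classes. Their direction was therefore partly set by that choice and was not tested. Of 19 measured genes of the block around Myc, Myc included, 17 were higher in high tumours, with a median difference of 0.43, close to the 0.45 of the whole chromosome. Pvt1, the non-coding gene next to Myc, had a lowest value of 7.28, a median of 8.48 and a highest of 9.25 in high tumours, against 2.95, 7.46 and 8.96 in low tumours, a difference of 0.96. Trib1, a pseudokinase that directs C/EBP proteins to degradation, differed by 0.88, and Sqle, which encodes squalene epoxidase of cholesterol synthesis, by 0.69. For Sqle, 31 of the 41 low tumours lay below every high tumour. In the other direction, Ccn4, a secreted Wnt-induced matricellular protein, differed by -0.41.

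All 19 measured genes of translation and ribosome biogenesis were higher in high tumours, with differences between 0.11 and 0.63 and a median of 0.42. Puf60, a splicing factor that has also been described as a regulator of Myc transcription, separated the classes best among the members described here: it spanned 10.70 to 11.34 with a median of 11.03 in high tumours and 9.85 to 10.73 with a median of 10.37 in low tumours, and 40 of 41 low tumours lay below every high tumour. Eif3d, a subunit of the eIF3 initiation complex, spanned 12.22 to 12.91 in high tumours and 11.42 to 12.32 in low tumours, and 35 low tumours lay below every high tumour. Eif3h and Eif3e, other subunits of the complex, differed by 0.37 and 0.29. The ribosome assembly factors Brix1 and Bop1 differed by 0.52 and 0.49, and the ribosomal protein gene Rpl8 by 0.11.

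All 16 measured cell cycle and chromosome maintenance genes were higher in high tumours, from 0.29 to 0.76, with a median of 0.49. Racgap1, a regulator of the central spindle in cytokinesis, differed by 0.76. Rad1, a clamp subunit of the DNA damage checkpoint, and Cenpm, a centromere protein, each differed by 0.73. Skp2, the ubiquitin ligase subunit that targets the inhibitor p27, had a lowest value of 10.40, a median of 10.93 and a highest of 11.46 in high tumours, against 9.06, 10.43 and 11.05 in low tumours, and 20 of 41 low tumours lay below every high tumour. Rad21, a subunit of cohesin, differed by 0.47.

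The 21 measured metabolic and mitochondrial genes were likewise all higher, by 0.01 to 1.12 with a median of 0.49. They included Ank, a transporter of pyrophosphate, at 1.12, and Srebf2, the transcription factor that drives sterol synthesis, at 0.66. Of 26 measured genes of signalling, adhesion and the cytoskeleton, 22 were higher, with a median difference of 0.33. Deptor, an inhibitor of mTOR, spanned 7.92 to 12.45 with a median of 11.19 in high tumours and 7.96 to 12.31 with a median of 9.51 in low tumours, a difference of 1.36 with widely overlapping ranges. The polarity gene Scrib differed by 0.59, and 35 of 41 low tumours lay below every high tumour.

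Receptors and ligands were more mixed, with 15 of 20 measured members higher and a median difference of 0.41. Nr4a1, an orphan nuclear receptor induced as an immediate early gene, differed by 1.67, with medians of 10.79 in high and 8.50 in low tumours. Dhh, the hedgehog ligand desert hedgehog, differed by 1.53, the retinoic acid receptor gene Rarg by 0.61 and the activin receptor gene Acvr1b by 0.59. Il7r, the interleukin 7 receptor of lymphocytes, differed by -0.45 and Ptger4, a prostaglandin E2 receptor, by -0.43.

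The keratin cluster at the end of the chromosome held genes of both directions. The simple epithelial keratins were higher in high tumours: Krt18 spanned 13.10 to 14.21 with a median of 13.56 in high tumours and 12.28 to 13.38 with a median of 12.86 in low tumours, Krt8 differed by 0.40 and Krt7 by 0.70. The other 6 of the 9 measured keratins were lower in high tumours. Krt5, the type II keratin of basal cells, had a lowest value of 5.11, a median of 7.02 and a highest of 10.96 in high tumours, against 5.13, 8.56 and 11.68 in low tumours. Its difference of -1.18 was the lowest on the chromosome, and Krt79 stood at -0.72.

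The genes that departed most from the common shift were of other kinds. Besides Nr4a1, Dhh and Deptor, the 12 largest differences were those of Col2a1, a cartilage collagen (2.08), the water channel gene Aqp5 (1.92), the calcium sensor gene Ncald (1.90), the elastase gene Cela1 (1.67), the surface antigen gene Ly6d (1.67), the glutamine transporter gene Slc38a1 (1.59), Mapk12 (1.39), Sgsm3 (1.37) and the taurine synthesis gene Csad (1.26). Aqp5 spanned 9.63 to 13.65 with a median of 13.04 in high tumours and 7.63 to 12.98 with a median of 10.41 in low tumours. After Krt5, the lowest differences were those of the matricellular gene Ccn3 (-1.0), C1qtnf3 (-0.82), Krt79 (-0.72), the complement gene C9 (-0.65) and the fibril-associated collagen gene Col14a1 (-0.51). In bulk tumours, fewer cells of a type and less RNA per cell cannot be told apart.

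Among the other 19 chromosomes, chromosome 6 differed most. Its score, made in the same way, averaged 0.116 ± 0.183 (SD, n = 29) in high and -0.065 ± 0.162 (SD, n = 41) in low chromosome 15 tumours, a difference of 0.181 (SE 0.042, adjusted p = 0.000285, permutation test). Without the 4 tumours above 0.4 it was 0.207. With the stricter thresholds of 0.25 and -0.1, which left 7 high and 36 low tumours, it was 0.095 (adjusted p = 0.368). The scores of 11 further chromosomes passed the test with lower values in high tumours, from -0.067 on chromosome 13 to -0.018 on chromosome 4. Each score is relative to the array median over all genes, those of chromosomes 15 and 6 included, so a lower score need not mean lower expression. When the array median was taken over the genes off chromosome 15 alone, 5 chromosomes passed: chromosome 6 at 0.197, and chromosomes 3, 13, 19 and X at -0.02, -0.051, -0.04 and -0.039. That median still held the chromosome 6 genes.

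**Figure D3:**
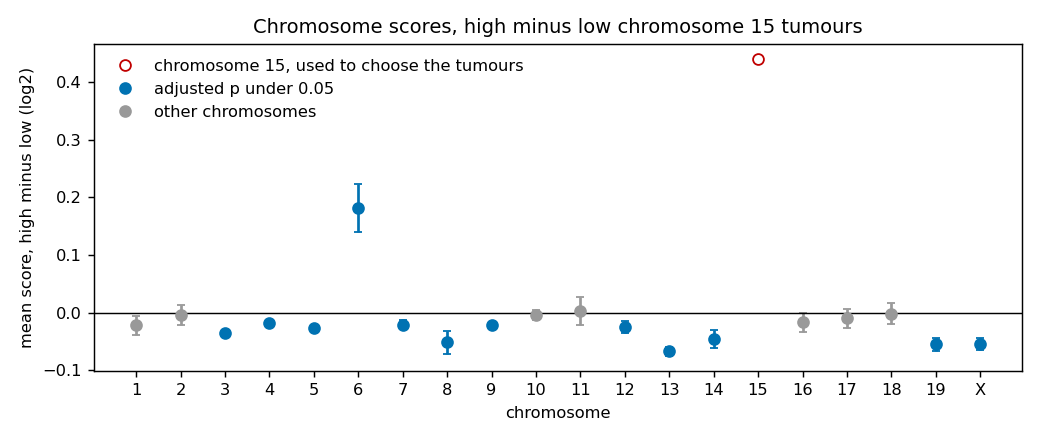
Mean chromosome score of high minus low chromosome 15 tumours (log2, y axis) for each chromosome (x axis); bars are the standard error of the difference, blue points have an adjusted p under 0.05 by permutation test, and the open point is chromosome 15, which chose the tumours. Chromosome 6, at 0.181, is the one other chromosome well above 0.

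High chromosome 15 and high chromosome 6 went together. A chromosome 6 score above 0.15 was found in 18 of the 29 high chromosome 15 tumours (62.1%) and in 9 of the other 51 (17.6%), an odds ratio of 7.64 (adjusted p = 0.000444, Fisher exact test over 3 chromosomes). The 18 tumours with both were 66.7% of the 27 tumours with high chromosome 6. For chromosome 8, the counts were 1 of 29 and 4 of 51 (adjusted p = 0.648), and for chromosome 11 they were 4 of 29 and 2 of 51 (adjusted p = 0.274). With 0.25 as the threshold for every chromosome the odds ratio for chromosome 6 was 1.43 (adjusted p = 0.978).

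The pairing was uneven across genotypes. All 8 wild-type high chromosome 15 tumours also had high chromosome 6, as had 4 of 5 in E2F1 null, 3 of 8 in E2F2 null and 3 of 8 in E2F3 heterozygous mice; this difference between genotypes was not tested. In all, 18 tumours had both chromosomes high, 11 had high chromosome 15 alone, 7 had low chromosome 15 with high chromosome 6 and 34 had low chromosome 15 without it. The 3 E2F2 null tumours with chromosome 15 scores over 0.4 had chromosome 6 scores of -0.123, -0.173 and -0.173, and E2F1 null replicate 8 had 0.273.

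**Figure D4:**
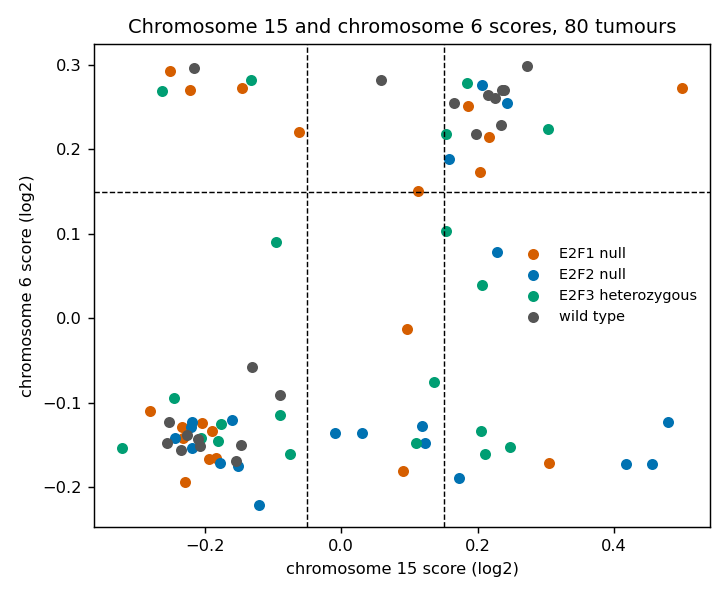
Chromosome 6 score (y axis, log2) against chromosome 15 score (x axis, log2) of the 80 tumours, coloured by genotype; dashed lines mark 0.15 on both axes and -0.05 on the x axis. The upper right corner holds 18 tumours, 8 of them wild type, and the lower left corner holds most low chromosome 15 tumours.

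Genes off chromosome 15 were tested between the classes with limma, with genotype as a term and the label number as a random block. A gene was called at an adjusted p under 0.05, and it is said to have risen or fallen in high relative to low tumours only then. Of 8403 genes, 1664 (19.8%) were called, 875 (10.4%) higher and 789 (9.39%) lower, and 175 of them changed by more than 1 on the log2 scale. On chromosome 6, 183 of 459 genes (39.9%) were called, 179 of them higher. Off both chromosomes, 1481 of 7944 genes (18.6%) were called.

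Because the chromosome 6 score moved with the chromosome 15 class, the test was repeated in 2 ways chosen after the data were seen. With the chromosome 6 score as a further term, 328 genes (3.9%) were called, 161 (1.92%) higher and 167 (1.99%) lower, and 277 of them were among the 1664. Among the 53 tumours with a chromosome 6 score below 0.15, 11 were high and 34 low. The 11 high tumours were 1 E2F1 null, 5 E2F2 null and 5 E2F3 heterozygous, with no wild-type tumour. Here 183 genes (2.18%) were called, 71 (0.845%) higher and 112 (1.33%) lower, and 163 of them were among the 1664. Of the 1664 genes, 1629 kept their sign in the first repeat and 1632 in the second, with median ratios to the original log2 fold change of 0.66 and 0.88. These repeats are called the fit with the chromosome 6 term and the fit in tumours without high chromosome 6.

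The largest rises off chromosome 15 included 2 transcription factors of secretory and luminal epithelium, Spdef and Foxa1. Spdef, an ETS factor of secretory epithelial cells, had a lowest value of 3.10, a median of 7.30 and a highest of 9.73 in high tumours, against 2.77, 4.27 and 9.56 in low tumours. Spdef exceeded a log2 signal of 6.31, the filter on low values, in 19 of 29 high and 3 of 41 low tumours. It therefore passed that filter mainly through high tumours. It rose by 2.45 (SE 0.38, adjusted p = 4.24e-06, limma), and by 2.06 with the chromosome 6 term (adjusted p = 0.00233). In tumours without high chromosome 6 its log2 fold change was 1.55 (adjusted p = 0.151). The medians were 7.40 in tumours with both chromosomes high, 5.84 with chromosome 15 alone high, 4.49 with low 15 and high 6, and 4.11 with neither.

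Foxa1, the pioneer factor of luminal mammary cells, rose by 2.14 (SE 0.41, adjusted p = 0.000131, limma). It spanned 4.40 to 11.59 with a median of 7.80 in high tumours and 2.70 to 10.12 with a median of 5.48 in low tumours, so the ranges overlapped widely. With the chromosome 6 term it rose by 1.62 (adjusted p = 0.0299), and in tumours without high chromosome 6 the value was 1.68 (adjusted p = 0.126). The claudin gene Cldn10 rose by 2.49, and by 1.73 with the chromosome 6 term (adjusted p = 0.0151).

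Pygl, liver glycogen phosphorylase, passed in both repeats, with log2 fold changes of 1.97 in all tumours, 1.19 with the chromosome 6 term and 1.72 in tumours without high chromosome 6 (adjusted p = 1.41e-05, 0.0296 and 0.0411, limma). Socs2, a feedback inhibitor of growth hormone and STAT5 signalling, rose by 1.91. In tumours without high chromosome 6 it rose by 2.28 (adjusted p = 0.023), and with the chromosome 6 term the value was 1.27 (adjusted p = 0.0642). The glutathione peroxidase gene Gpx2 rose by 1.91, and by 2.65 in tumours without high chromosome 6 (adjusted p = 0.00787). Chn2, a Rac GTPase activating protein encoded on chromosome 6, had the largest rise, 2.99, and Tesc, a calcium-binding regulator of ion exchange, rose by 2.40; both passed in tumours without high chromosome 6 (2.92 and 2.56, adjusted p = 0.0321 and 0.0292) and missed with the chromosome 6 term (1.44 and 1.40, adjusted p = 0.14 and 0.0807). The 12 largest rises also included 2310057J18Rik (2.95), the carbonic anhydrase gene Car6 (2.16), Snorc (2.14) and the scaffold gene Homer2 (2.01); of these 4, 2310057J18Rik passed with the chromosome 6 term (2.60, adjusted p = 0.0232) and none passed in tumours without high chromosome 6.

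The 12 largest falls included acute phase and milk protein genes and Sema3e, which encodes a secreted semaphorin. Sema3e had a lowest value of 2.66, a median of 4.05 and a highest of 7.02 in high tumours, against 3.80, 5.96 and 7.88 in low tumours. It fell by 1.84 on the log2 scale (SE 0.26, adjusted p = 8.04e-07, limma), by 1.49 with the chromosome 6 term (adjusted p = 0.00115) and by 1.81 in tumours without high chromosome 6 (adjusted p = 0.0122). Of the high tumours 2 of 29, and of the low tumours 18 of 41, lay above the filter on low values, a log2 signal of 6.31, so the size of this fall rests on signals near background. It was the one gene of the 12 largest falls that passed in either repeat.

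Serum amyloid A genes fell together: Saa2 by 2.59, Saa1 by 2.42 and Saa3 by 2.08 on the log2 scale, and the acute phase gene Orm1 by 2.04. Saa1 and Saa2 are near-identical copies whose probe sets may read both, so their values are not independent. For Saa3 the values with the chromosome 6 term and in tumours without high chromosome 6 were -1.21 and -1.97 (adjusted p = 0.155 and 0.085, limma). Its medians were 7.10 in tumours with both chromosomes high, 8.0 with chromosome 15 alone high, 6.54 with low 15 and high 6, and 10.45 with neither. The other large falls were those of Cbr2 (-2.01) and the fatty acid transporter gene Slc27a2 (-1.90). Slc27a2 lay above the filter in 1 of 29 high and 16 of 41 low tumours, so the size of its fall rests on signals near background.

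**Figure D5:**
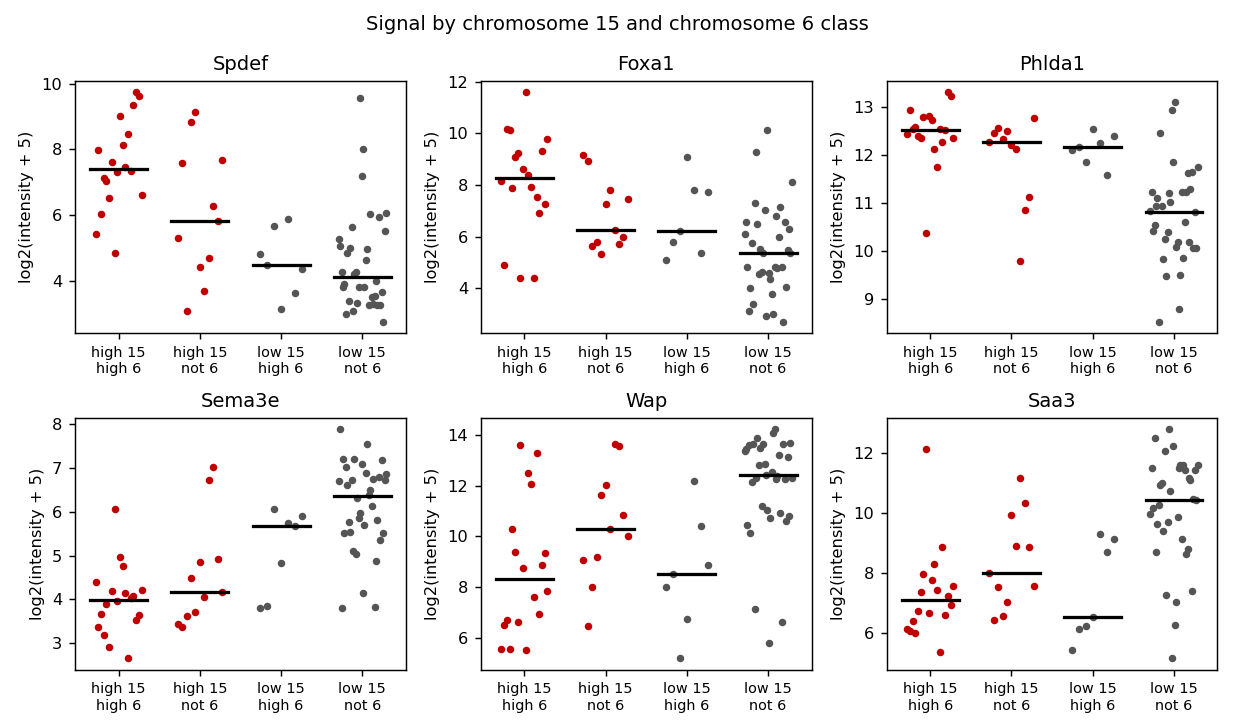
Log2 signal (y axis) of 6 genes in tumours split by chromosome 15 class and by a chromosome 6 score above 0.15 (x axis: 18, 11, 7 and 34 tumours); points are tumours, red for high and grey for low chromosome 15, and lines are medians. Sema3e is lower in both high chromosome 15 groups, with medians of 3.99 and 4.18 beside 5.68 and 6.35, whereas Wap and Saa3 are also low in the 7 tumours with high chromosome 6 alone.

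Many milk and secretory genes were lower in high tumours. Of 17 measured members, 8 fell and none rose, with a median log2 fold change of -1.13. Over all genes tested, 9.39% fell and the median was -0.02. Wap, whey acidic protein, had a lowest value of 5.52, a median of 9.20 and a highest of 13.63 in high tumours, against 5.19, 12.25 and 14.23 in low tumours, and fell by 2.26 (adjusted p = 0.00457, limma). Csn2 and Csn1s1, the beta and alpha caseins, each fell by 1.84, and Muc15, Ltf, Olah, Folr1 and Xdh fell by 0.64 to 2.03. High minus low for Csn1s1 was 0.49 in E2F1 null, -3.03 in E2F2 null, 0.31 in E2F3 heterozygous and -4.18 in wild-type tumours, and for Csn2 it was -0.28, -2.03, -0.05 and -4.16 in the same order, so the casein falls were not seen at similar size in every genotype. The test of a difference between genotypes called no gene. With the chromosome 6 term no member passed and the list median was -0.18. In tumours without high chromosome 6, which held no wild-type high chromosome 15 tumour, none passed either and the median was -0.45. There the value for Wap was -1.94 (adjusted p = 0.177, limma) and for Csn2 -0.44 (adjusted p = 0.72, limma). Median Wap signal was 8.30 with both chromosomes high, 10.3 with chromosome 15 alone high, 8.51 with low 15 and high 6, and 12.4 with neither.

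Over all genes tested 10.4% rose in high tumours. Of 15 measured feedback and target genes of the RAS and MAPK pathway, 10 rose and none fell, with a median of 0.67. They were the ETS factors Etv4 (1.47) and Etv5 (1.36), Phlda1 (1.37), the ERK phosphatase gene Dusp6 (1.24), the ligand gene Hbegf (0.84), the feedback inhibitors Spry2 (0.76), Spred1 (0.67) and Spred2 (0.44), Ier3 (0.74) and the receptor gene Epha2 (0.59). Phlda1, a pleckstrin homology protein induced by ERK signalling, passed in both repeats, at 0.99 with the chromosome 6 term and 1.38 in tumours without high chromosome 6 (adjusted p = 0.0101 and 0.0279, limma). It spanned 9.78 to 13.30 with a median of 12.43 in high tumours and 8.52 to 13.10 with a median of 11.01 in low tumours. The other 9 genes missed in both repeats, and the list medians there were 0.35 and 0.58. High minus low for Etv4 was 1.79 in E2F1 null, 1.19 in E2F2 null, -0.28 in E2F3 heterozygous and 2.88 in wild-type tumours, and for Dusp6 it was 0.95, 1.73, -0.10 and 2.10 in the same order. Spred1, Spred2, Hbegf and Epha2 lay between -0.11 and 0.02 in E2F3 heterozygous tumours. No gene was called for a difference between genotypes.

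Of 24 genes of the mitochondrial respiratory chain, 12 fell by small amounts and none rose, with a median of -0.15. Over all genes tested 9.39% fell. The 12 falls, from 0.12 to 0.31 on the log2 scale, included the succinate dehydrogenase subunits Sdhb (-0.30) and Sdha (-0.22), the complex III genes Uqcrc1 (-0.27) and Uqcrc2 (-0.22) and the complex I gene Ndufb10 (-0.31). None of the 24 passed in either repeat, with medians of -0.12 and -0.17. Chaperone and proteasome genes had 5 falls and 1 rise among 24 members, all under 0.3 in size, beside 19.8% called over all genes. The rise was that of Cct7 on chromosome 6.

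Called genes made up 6 of 38 in a list of Myc targets and ribosome biogenesis and 2 of 9 in a list of the Max network. Over all genes tested 19.8% were called. Among the 38 genes of Myc targets and ribosome biogenesis, 2 rose (Polr1a on chromosome 6, and Ddx18) and 4 fell (Rrp12, Ldha, Ddx21 and Hspe1), with a median of -0.03. The 22 cytoplasmic ribosomal protein genes encoded elsewhere had no called member and a median of -0.01. In the Max network 2 of 9 members fell, Mlxipl (-0.64) and Mlxip (-0.21). Of 34 mitotic genes none was called, with a median of -0.00. The 16 cell cycle genes on chromosome 15 itself, all higher in high tumours, were part of the score and were not tested. DNA replication genes had 3 rises (Mcm2 on chromosome 6, Uhrf1 and Tk1) and 1 fall (Ccne1, cyclin E1) among 36. Ccne1 passed with the chromosome 6 term (-0.41, adjusted p = 0.0272, limma), and Mcm2 missed, at 0.11 (adjusted p = 0.523, limma).

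Among 9 E2F and pocket protein genes, Rb1 fell by 0.59 and E2f6, a repressive E2F, by 0.22 on the log2 scale. Of all genes tested 9.39% fell. E2f6 passed with the chromosome 6 term, at -0.32 (adjusted p = 0.0129, limma), and Rb1 missed, at -0.18 (adjusted p = 0.7). Of 21 genes of the p53 pathway and apoptosis, Bid on chromosome 6 rose by 0.83 and Mcl1 fell by 0.25, beside 19.8% called over all genes. Bid also passed in tumours without high chromosome 6 (0.53, adjusted p = 0.0477, limma).

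Lineage genes did not shift one way, and 19.8% of all genes tested were called, 10.4% higher and 9.39% lower. Of 21 luminal genes, Foxa1, the progenitor marker Prom1 (1.83), the receptor gene Kit (0.98) and the epithelial factor gene Elf3 (0.28) rose and the mucin gene Muc1 (-1.40) fell, with a list median of 0.03. Elf3 passed with the chromosome 6 term as well (0.44, adjusted p = 0.00538, limma). Of 15 basal genes, Krt14, the partner of Krt5, fell by 1.44. It missed with the chromosome 6 term, at -0.60 (adjusted p = 0.613). Among 15 squamous genes, Klk10, Serpinb5 and Ppl fell, while 6 of the 15 had positive values and the list median was -0.05. With the chromosome 6 term 1 squamous gene rose and none fell. Of 18 genes of epithelial to mesenchymal transition, Tgfb1 (0.89) and Tgfb2 (0.53) rose, while 7 of the 18 had positive values and the list median was -0.14. Tgfb2 passed with the chromosome 6 term (0.82, adjusted p = 0.0116, limma), and Tgfb1 missed in both repeats.

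Among Wnt output, lipid, stress and hypoxia genes, 4 of 8, 3 of 20, 3 of 19 and 5 of 22 were called, beside 19.8% over all genes. The Wnt inhibitor gene Wif1 (1.54), the Wnt receptor ligase gene Rnf43 (0.73) and Cd44 (0.73) rose and Tcf7l2 (-0.39) fell among the 8 Wnt output genes, and none passed in either repeat. Wif1 exceeded the filter on low values in 15 of 29 high and 6 of 41 low tumours. Of 20 genes of cholesterol and fatty acid synthesis, Srebf1 (0.47) and Fdft1 (0.34) rose and Fasn (-0.31) fell; Srebf1, the lipogenic relative of the chromosome 15 gene Srebf2, passed with the chromosome 6 term (0.44, adjusted p = 0.0191, limma). In the unfolded protein response 3 of 19 genes rose (Herpud1, Edem1 on chromosome 6, and Xbp1). Hypoxia and glycolysis genes had 1 rise, Hk2 on chromosome 6, and 4 falls (Aldoa, Ldha, Egln1 and Pgam1) among 22. Their list median was -0.11, and 0.18 in tumours without high chromosome 6.

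Interferon genes differed between the fits. Of 25 measured genes of the interferon response and MHC class I, Irf1 rose (0.32, adjusted p = 0.021, limma) in the fit without the chromosome 6 term. The list median there was 0.08, and 10.4% of all genes tested rose. With the chromosome 6 term 5 rose (Irf1, Psmb8, Psmb9, Igtp and Cxcl10), with a median of 0.73, beside 1.92% of all genes tested. Cxcl10, a chemokine induced by interferon, spanned 3.21 to 11.8 with a median of 5.26 in high tumours and 2.92 to 7.15 with a median of 5.17 in low tumours. Its medians were nearly equal, and its value was 1.48 with the chromosome 6 term (adjusted p = 0.0192) and 2.15 in tumours without high chromosome 6 (adjusted p = 0.0188). Without the chromosome 6 term the value was 0.76 (adjusted p = 0.137, limma). When the 4 tumours above 0.4 were left out of that fit, it was 0.36 (adjusted p = 0.503, limma).

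The called markers of other cell types were all falls and were few, beside 9.39% of all genes tested that fell. Most members of these lists had negative values, whether called or not. Positive values were held by 2 of 22 fibroblast and collagen, 1 of 19 endothelial and 0 of 19 macrophage genes. They were also held by 2 of 9 adipocyte, 4 of 11 neutrophil, 0 of 3 T, NK and B cell and 2 of 17 skeletal muscle genes. Over all genes tested, 3855 of 8403 had positive values. In the fibroblast and collagen list, Dcn (-0.95) and Lum (-0.88) fell among 22 members, with a median of -0.37. The summed intensity of that list ran from 9161 to 52522 with a median of 24716 in high tumours and from 6390 to 180485 with a median of 26601 in low tumours. Single falls were found in the endothelial list (Cldn5, 1 of 19), the adipocyte list (Pparg, 1 of 9), the neutrophil list (S100a8, 1 of 11) and the list of T, NK and B cells (Jchain, 1 of 3). In the same order, the list medians were -0.2, -0.47, -0.15 and -0.32. None of 19 macrophage genes was called, with a median of -0.15. None of 17 skeletal muscle genes was called, with a median of -0.42, and 0.46 in tumours without high chromosome 6. No measured member of these lists was at 0 in any tumour, and the part of these cells in the results above was not tested.

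The effect of the class was not detectably different between genotypes. A moderated F test of high minus low between the 4 genotypes in limma called 0 of 8403 genes, with 267 at an unadjusted p under 0.05 and a smallest adjusted p of 0.997. Of the 1664 called genes, 1444 had the same sign of high minus low in all 4 genotypes and 214 in 3. These genes were called on the same tumours for a common difference, so agreement in sign is favoured by that choice. In wild-type tumours the effects of the 2 chromosomes cannot be told apart, since all 8 high tumours had both.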

How the data were processed

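RNA from each of 80 tumours was hybridised to a 1-colour Affymetrix array. Per the submitters' processing notes, the authors made the deposited linear intensity values with MAS5 in Affymetrix Expression Console; no source used here states a version. The trimmed mean of each array lay between 500.17 and 500.22, so arrays were scaled to a common mean and a change in total mRNA per cell cannot be seen.

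After 64 control probe sets were left out, probe sets with 1 gene symbol (20380 of 22626) were used, at log2(value + 5), with the brightest probe set per gene. Genes above 74.6, the 40th percentile, on at least 10 arrays were tested, 8769 of 12393. Chromosome and gene order came from RefSeq GRCm38.p6, which matched 8761 of the tested genes; the files name no build, so no coordinates are printed.

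Classes followed the score. Chromosome 15 genes got no test. Other genes were fitted in limma 3.58.1 (statmod 1.5.0, R 4.3.3) on all 80 arrays in 3 classes, with genotype and the label number as a random block (correlation 0.171), trend and robust moderation, and two-sided p-values adjusted by Benjamini-Hochberg over 8403 genes. Tumours are separate samples, but those sharing a label number may be from 1 animal. Permutation tests (100000 resamples, two-sided, smallest p 1e-05) and Fisher exact tests used Python 3.11.15, numpy 2.4.6, pandas 2.3.3 and scipy 1.17.1; plots used matplotlib 3.10.9. The number of arrays sets the precision, with a median SE of 0.085 for a log2 fold change. The fit was tested on simulated data.

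Genes were named by rule: the 12 largest called changes in each direction, every called list member, the 12 highest and 6 lowest chromosome 15 differences, and members of chromosome 15 lists. Cxcl10, Igtp, Psmb8 and Psmb9 were named after their values were seen. The members, lists and alternatives were chosen with earlier results of these data known.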

Additional observations from a re-analysis of the deposited data

Results flagged for a closer look

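Among the 5 E2F1 null tumours with high chromosome 15, replicate 15 lay far from the others in its chromosome 6 score, at -0.17; the other 4 had high chromosome 6. In 18 groups checked for a sample far from the rest, this was the 1 found, and chance flags about 1 group in 20.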

How the results depend on the processing

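The count of genes called off chromosome 15, 1664, stayed within 1.5 times under the other pseudocounts, filters, quantile normalization, score as a number, fits without genotype or label number, without E2F1 null replicate 6 and without the 4 tumours above 0.4. It fell to 355 (180 higher, 175 lower) with the stricter score thresholds, which left 7 high tumours, to 328 (161 higher, 167 lower) with the chromosome 6 term, and to 183 (71 higher, 112 lower) in tumours without high chromosome 6, with fewer tumours in the fit. Testing each probe set separately called 2494 probe sets (not genes), 1272 higher and 1222 lower. In tumours without high chromosome 6, Aldoa stood at 0.00 and Polr1a at -0.01, against -0.31 and 0.32. Chromosomes past the threshold numbered 12, 7 with the stricter thresholds and 5 with the array median over genes off chromosome 15; the odds ratio for chromosome 6 was 1.43 at a threshold of 0.25. At that threshold the odds ratio was 2.88 for chromosome 8, against 0.42 (adjusted p = 0.978 and 0.648, Fisher exact tests). Beyond what the settings themselves change, the cause was not tested. Of 101 named genes off chromosome 15, 13 passed with the chromosome 6 term and 8 in tumours without high chromosome 6; 37 had other detected probe sets, and all 59 of these had the same sign. Classes changed for at most 7 tumours under another pseudocount, filter or normalization. Label number was also fitted as a fixed replicate block, chosen after seeing the data, so that tumours were compared within label numbers. The fit used all 80 arrays. Besides the 7 numbers that hold high and low tumours, numbers pairing a between tumour with a high or low one also informed it. In this fit 55 genes were called (31 higher, 24 lower), all among the 1664, and 4 of the 101 named genes passed. Of the 1664 genes, 1661 kept their sign, at a median ratio of 1.09 to the original log2 fold change. Within these 7 numbers 0 chromosomes passed (exact sign-flip tests, smallest p possible 0.0156); 8 had an unadjusted p under 0.05, and chromosome 6 differed by 0.18, higher in 5 of 7 (p = 0.0625, adjusted p = 0.108). Array number and signal over background limit low genes. Several named genes were often below the filter on low values, so their changes rest partly on signals near background. Of 29 high and 41 low tumours, 18 and 10 exceeded it for Etv4, 10 and 26 for Orm1, and 12 and 27 for Muc1. For Klk10 the counts were 9 and 30, for Olah 5 and 21, for Mlxipl 7 and 20, for Pparg 4 and 11, and for Ptx3 7 and 31.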

Other observations

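Some genes outside the lists and the largest changes were called in all 3 fits, with all tumours, with the chromosome 6 score as a term and in tumours without high chromosome 6; they were chosen after their values were seen. Fzd8, a Wnt receptor, had a lowest value of 2.89, a median of 5.41 and a highest of 6.45 in high tumours, against 4.91, 6.36 and 7.15 in low tumours. It exceeded the filter on low values, a log2 signal of 6.31, in 2 of 29 high and 23 of 41 low tumours. Its log2 fold changes in the 3 fits were -1.13, -1.06 and -1.35 (adjusted p = 4.77e-07, 0.000209 and 0.000441, limma). Cntnap2, a neurexin family adhesion gene on chromosome 6, rose by 1.27, 1.43 and 1.93 (adjusted p = 0.00013, 0.00104 and 0.0016), and exceeded the filter in 10 of 29 high and 1 of 41 low tumours. Pdlim4, a PDZ and LIM domain protein of the actin cytoskeleton, rose by 1.23, 1.59 and 1.87. Uggt2, a glucosyltransferase of glycoprotein folding, had values of -0.63, -1.03 and -0.85, and exceeded the filter in 2 of 29 high and 14 of 41 low tumours. Fzd8, Cntnap2 and Uggt2 thus passed the filter mainly through the class where they were higher. Their calls depend on that filter, and the sizes of their differences rest on signals near background. Steap1, a metalloreductase, had values of -1.26, -0.98 and -1.60.

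The secreted pattern recognition gene Ptx3 was called in the first 2 of these fits. It had a median of 5.83 in high and 7.86 in low tumours, and fell by 1.58 and by 1.78 on the log2 scale. In tumours without high chromosome 6 the value was -1.56 (adjusted p = 0.0791, limma).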
